A study of Mus musculus with 13 samples.

Results

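Histones are the proteins around which DNA is wound. Vertebrate genomes hold many copies of the genes for the core histones H2A, H2B, H3 and H4 and for the linker histone H1. Most of these copies lie in clusters, are transcribed mainly in S phase, when new DNA has to be packed, and give messages that end in a stem-loop instead of a poly(A) tail; they are called replication-dependent. A smaller set of variant genes lies outside the clusters, gives polyadenylated messages throughout the cell cycle and encodes histones with special places or tasks in chromatin, and further variants are known from the germline. In T cells that have met their antigen, rapid division goes along with high histone demand.

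The histone genes described here were those whose probe set carried a single gene symbol of the histone families H1, H2A, H2B, H3 or H4. The rule found 47 genes with 49 probe sets among 22180 genes, and each gene was represented by its brightest probe set, judged by the average of the 13 arrays. By class and kind, 24 were replication-dependent (4 of H1, 6 of H2A, 7 of H2B and 7 of H4), 5 were variants of somatic cells (H1f10, H2ax, H2az1, H2az2 and H2aj), 16 were germline genes and 2 were pseudogenes. The class H3 had 0 members, because every probe set for an H3 gene was annotated with several symbols. H1f4, H3f3a and H3f3b likewise were read only on shared probe sets. Probe sets shared by several histone genes are described after the members.

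The arrays measured total RNA of donor CD4+ T cells in a mouse model of graft-versus-host disease. Splenocytes of C57BL/6 mice, stained with the division dye CFSE, were transferred into B6D2F1 hosts; both strains were 10 to 12 weeks old. Host mice received TCDD once (15 µg/kg on day 0), Cl-BBQ daily (10 mg/kg on days 0, 1 and 2) or vehicle with the schedule of Cl-BBQ, all by the intraperitoneal route. TCDD (dioxin) and Cl-BBQ both bind the aryl hydrocarbon receptor (AhR), which acts on transcription once bound. At 72 h, CD4+ cells were enriched from spleen and lymph node with magnetic beads and sorted for at least 2 divisions, so that cells which had not divided were left out of all 3 groups. Vehicle and TCDD had 4 arrays each and Cl-BBQ had 5, every one labelled a biological replicate; the sources used here do not say whether an array held 1 host or a pool. Vehicle and TCDD animals differed in the number of injections as well as in the agent. Values are log2 expression after RMA, so a difference of -1 is a halving.

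Array medians lay between 4.27 and 4.33, and correlations between arrays between 0.943 and 0.976. The mean of the CD4 T cell markers Cd4, Cd3e, Cd3g and Cd5 was 10.98 to 11.30 in vehicle, 11.28 to 11.35 in TCDD and 11.27 to 11.34 in Cl-BBQ arrays. Marker means of B cells (3.95 to 4.42 over all arrays) and myeloid cells (4.20 to 4.60) lay near 4.31, the floor used for testing, which is the median over all probe sets and arrays. NK cell markers lay between 4.33 and 5.03 and CD8 T cell markers between 5.28 and 6.12. None of the CD4, CD8, B or NK cell markers was called in either comparison with vehicle, whereas Cd68, 1 of 5 myeloid markers and 1 of the 2 that were tested, rose with both agents (0.79 and 0.64 log2). Fewer cells of one type and less RNA per cell cannot be told apart in such bulk samples. The labelling used an oligo-dT primer, which binds poly(A) tails, so the level of a stem-loop message here need not be its level in the cell; the part this plays in the differences between groups was not tested.

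With TCDD, 11 of the 27 histone genes that could be tested were lower than with vehicle and 0 were higher (limma, Benjamini-Hochberg adjusted p under 0.05, 1 fit over all genes). Of all 12710 genes tested, 3.5% were lower and 3.21% higher in that comparison (6.71% in either direction). With Cl-BBQ, 15 of the 27 were lower and 0 were higher, against 6.03% and 5.31% of all genes tested (11.3% in either direction). All TCDD arrays lay below all vehicle arrays in 13 of the 27 genes and above them in 0, against 7.28% and 6.31% of all genes tested. For Cl-BBQ this held in 14 and 0 of the 27, against 6.8% and 6.08%. The falls were found in each replication-dependent class that could be measured: 9 of 16 tested replication-dependent genes fell with TCDD and 13 of 16 with Cl-BBQ. The number of members that fell with TCDD was 7 without vehicle replicate 1 and 7 to 12 over all fits that left out 1 array. Of the 5 somatic variants, H2ax and H2az2 fell with both agents and the other 3 did not pass the test. None of the 6 tested germline genes passed it. Among the members that did not pass, H2ac1 with TCDD had the only rise with an unadjusted p under 0.05.

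The remaining 20 members, 8 of them replication-dependent, 10 germline and the 2 pseudogenes, lay above the floor of 4.31 in fewer than 4 arrays and were not tested. Over all 24 replication-dependent genes, tested or not, the median log2 difference was -0.58 with TCDD and -0.74 with Cl-BBQ. The difference was below 0 in 24 and 23 of 24 genes, against 50.2% and 51.2% of all genes tested. Over the 5 somatic variants the median was -0.41 and -0.30, over the 16 germline genes -0.00 and -0.11, and over all genes tested -0.00 and -0.01. Both comparisons use the same 4 vehicle arrays, so their likeness is no independent repeat.

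**Figure D1:**
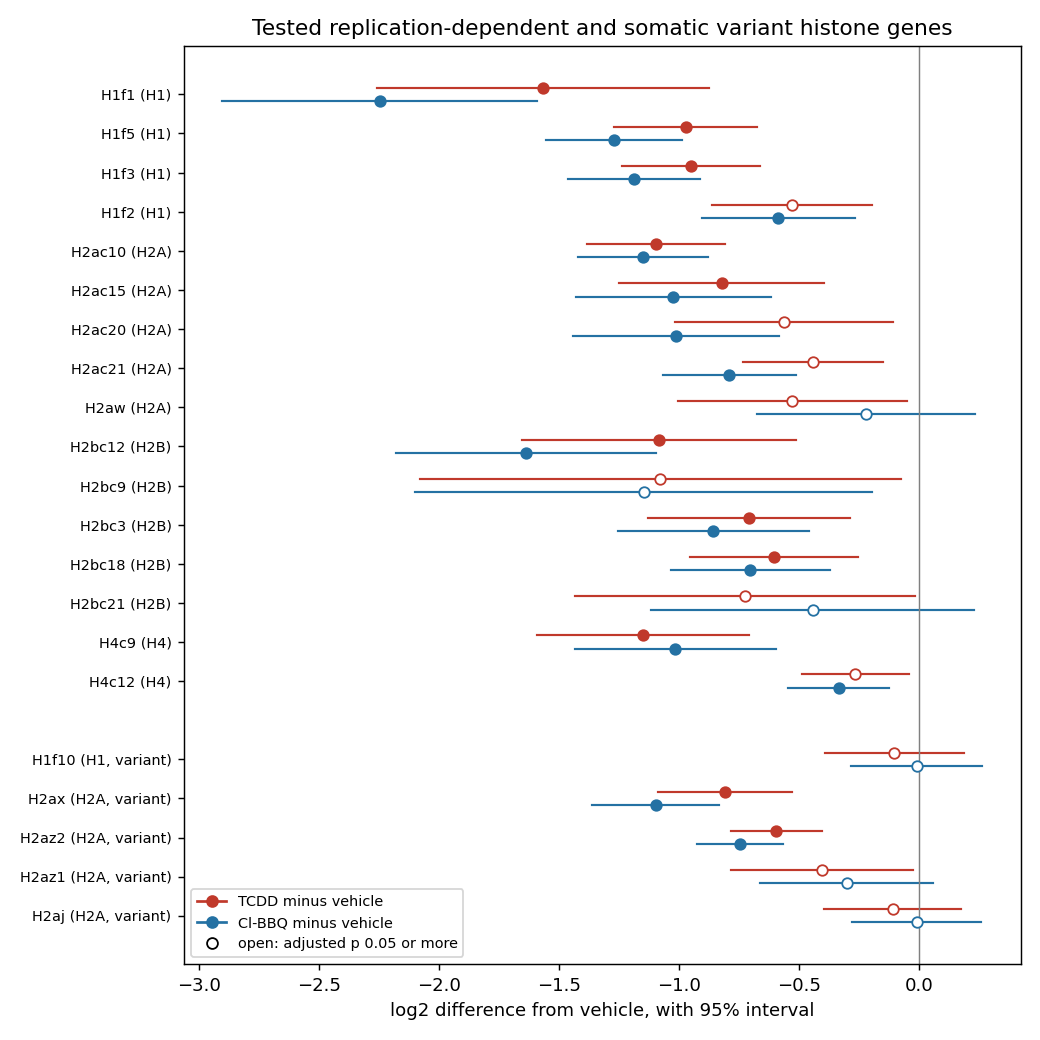
Log2 difference from vehicle (horizontal axis) of the 16 tested replication-dependent and the 5 somatic variant histone genes, with 95% intervals of the limma fit; red is TCDD and blue Cl-BBQ, and filled points have an adjusted p under 0.05. H1f1 lies farthest from 0 with both agents, at -1.57 and -2.25, and H1f10 and H2aj lie at the line of no difference.

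Since many of these genes fell together, their promoters were read from the RefSeq promoter table (build GRCm38.p6, 250 bases before to 50 after each annotated start), which listed 42 of the 47 members and 22 of the 24 replication-dependent ones. The 150 bases before the start are shown for members of each class: the linker histone genes H1f1 and H1f5, the H2A gene H2ac10, the H2B genes H2bc12 and H2bc18, and the H4 gene H4c9. All read 5′ to 3′ along the gene's own strand. Capitals mark matches, on either strand, to the CCAAT box (CCAAT), the TATA core (TATAA), the octamer of H2B promoters (ATTTGCAT) and the H1 box (AAACACA); a match in reverse orientation reads ATTGG for the CCAAT box and TTATA for the TATA core, and touching matches run together. They lie at chr13:23763518-23763667 (plus strand) for H1f1, chr13:21780626-21780775 (minus strand) for H1f5, chr13:23533725-23533874 (plus strand) for H2ac10, chr13:22035671-22035820 (plus strand) for H2bc12, chr13:22041363-22041512 (minus strand) for H4c9 and chr3:96269550-96269699 (plus strand) for H2bc18, all upstream of the annotated gene and outside any gene of the RefSeq table.
H1f1: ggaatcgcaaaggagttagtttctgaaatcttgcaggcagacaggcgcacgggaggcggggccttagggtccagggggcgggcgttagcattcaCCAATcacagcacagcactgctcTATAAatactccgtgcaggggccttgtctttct
H1f5: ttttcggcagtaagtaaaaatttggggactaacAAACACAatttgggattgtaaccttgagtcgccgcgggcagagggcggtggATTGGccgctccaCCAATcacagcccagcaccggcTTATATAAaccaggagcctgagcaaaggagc
H2ac10: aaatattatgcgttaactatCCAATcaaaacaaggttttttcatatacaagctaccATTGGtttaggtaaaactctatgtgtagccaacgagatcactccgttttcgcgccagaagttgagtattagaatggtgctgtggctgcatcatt
H2bc12: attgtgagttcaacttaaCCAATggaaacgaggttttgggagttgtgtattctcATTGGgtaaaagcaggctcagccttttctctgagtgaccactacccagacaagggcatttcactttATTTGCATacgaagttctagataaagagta
H4c9: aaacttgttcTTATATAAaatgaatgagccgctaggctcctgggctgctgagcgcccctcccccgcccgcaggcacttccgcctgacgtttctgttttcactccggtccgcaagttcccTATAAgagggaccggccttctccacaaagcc
H2bc18: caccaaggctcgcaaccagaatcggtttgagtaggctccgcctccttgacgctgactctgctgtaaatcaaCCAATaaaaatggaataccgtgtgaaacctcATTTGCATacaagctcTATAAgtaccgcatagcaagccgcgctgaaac

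The classes carried different letters in these windows. CCAAT was found in 16 of 16 promoters of H1, H2A and H2B genes but in 1 of 6 H4 promoters, and in 37.4% of all 32851 promoters of the table. TATAA was found, on either strand and anywhere in the window, in 19 of 22 replication-dependent promoters (86.4%) against 24.9% of all. Some of these promoters matched only after the start, as H2ac15, or only on the opposite strand, as H2ac10. It was found in 0 of 4 somatic variant promoters, while that of H2ax, the remaining somatic variant, was not listed. The octamer stood in 4 of 6 H2B promoters, always on the gene's strand, and in 3 of 6 H2A promoters, always on the opposite strand, against 1.74% of all promoters. The H1 box stood in 3 of 4 H1 promoters (H1f2, H1f3 and H1f5), in 1 H2B promoter (H2bc14) and in 7.18% of all promoters. In H1f1 the CCAAT box began at position -56 and TATAA at -33, counting the annotated start as 0. H2ac12 and H2bc12 lie back to back, and their windows share 277 bases. Their octamer, CCAAT and TATAA matches are the same bases, which the counts above hold once for each gene. The H2A and H2B counts are therefore not of separate sites throughout. H2bc12 was measured above the floor in all 13 arrays and H2ac12 in none.

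The core of the AhR response element, GCGTG, was found on either strand in 5 of 22 replication-dependent promoters (22.7%) and in 32.4% of all promoters. Its longer form TNGCGTG, which contains the core, was found in 1 of 22 (H2bc22) and in 5.07% of all. Of the E2F motifs searched, TTTCCCGC was found in 1 of 22 promoters, that of H4c1, with 4 copies, and TTTGGCGC in 0 of 22, against 1.07% and 0.514% of all promoters. A match is a description of letters only, and its absence covers only this window.

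**Figure D2:**
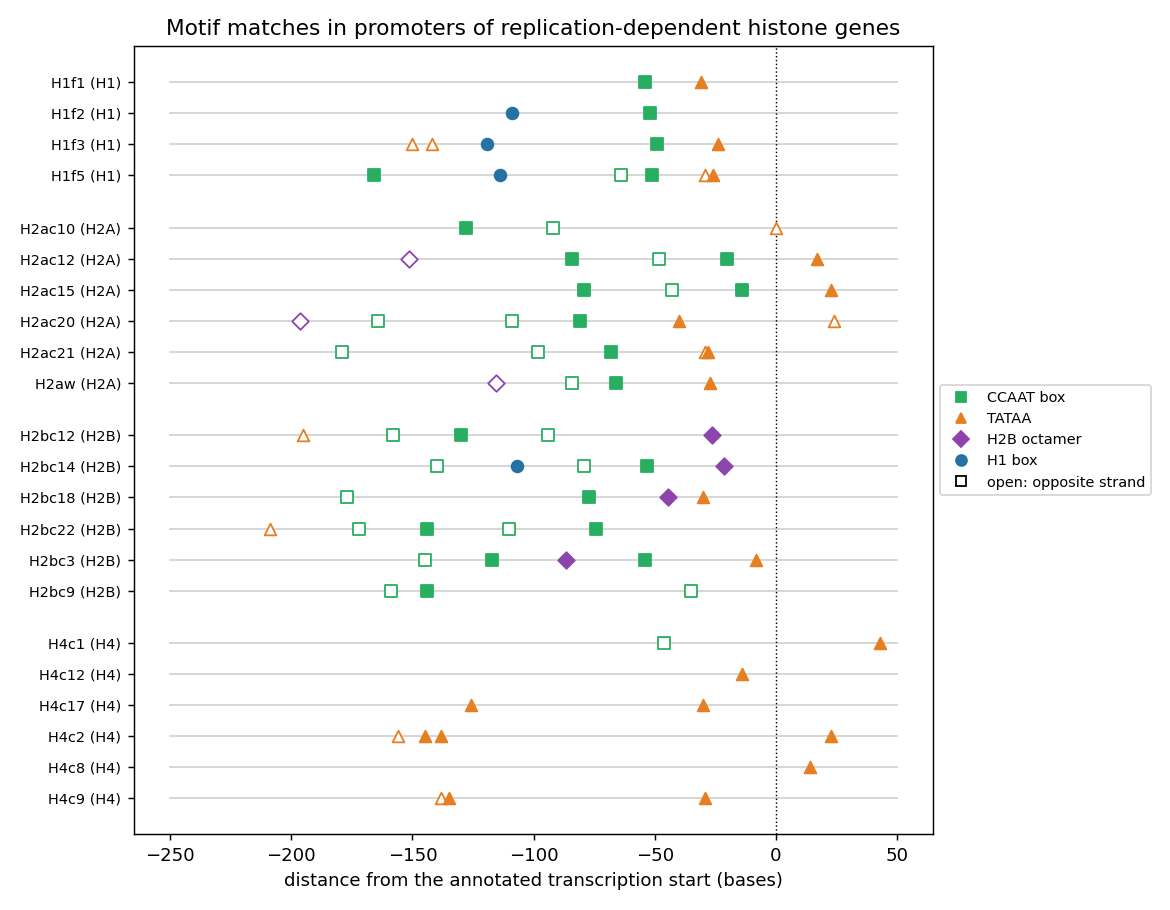
Position of motif matches in the promoters of the 22 replication-dependent histone genes listed by RefSeq, in bases from the annotated start (horizontal axis), 1 line per gene; each symbol is the centre of a match and open symbols lie on the opposite strand. CCAAT boxes (green squares) stand in every H1, H2A and H2B line and in 1 of the 6 H4 lines.

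Among the replication-dependent members, the linker histone genes had the lowest class medians of the 4 classes with members; classes were not compared by a test. Linker histones bind where DNA enters and leaves the nucleosome and help compact the chromatin fibre. All 4 replication-dependent H1 genes were tested. With TCDD 3 fell and with Cl-BBQ 4, with class medians of -0.96 and -1.23. Beside these and the class counts below, 3.5% and 6.03% of all genes tested were lower. H1f1 was measured at 7.34, 6.95, 6.51 and 6.48 in the vehicle arrays, at 5.81, 5.19, 5.39 and 4.63 with TCDD and at 5.03, 4.06, 5.26, 3.77 and 4.75 with Cl-BBQ. Every treated array lay below every vehicle array, and 2 Cl-BBQ arrays (replicates 2 and 4) lay below the floor. The fall was 1.57 log2 (SE 0.32, adjusted p = 0.0072; 2.96-fold) with TCDD and 2.25 log2 (SE 0.31, adjusted p = 0.00014; 4.75-fold) with Cl-BBQ.

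H1f5 had the smallest adjusted p-values among the H1 genes with Cl-BBQ. It was measured at 12.20, 11.97, 11.71 and 11.82 with vehicle, at 11.17, 10.82, 11.05 and 10.76 with TCDD and at 11.00, 10.61, 10.53, 10.64 and 10.49 with Cl-BBQ. The treated arrays lay below the vehicle arrays without overlap, by -0.97 (SE 0.14, adjusted p = 0.00041) with TCDD and -1.27 (SE 0.13, adjusted p = 1.1e-05) with Cl-BBQ. H1f3 was measured at 6.09, 6.35, 5.99 and 5.72 with vehicle, at 5.15, 4.89, 5.32 and 5.00 with TCDD and at 4.64, 4.85, 4.98, 4.82 and 4.97 with Cl-BBQ. Its groups likewise did not overlap, and it fell by 0.95 (SE 0.14, adjusted p = 0.0004) and by 1.19 (SE 0.13, adjusted p = 1.7e-05).

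H1f2 differed less. Its values were 9.01, 9.03, 8.61 and 8.48 with vehicle, 8.34, 7.91, 8.62 and 8.14 with TCDD and 8.08, 8.17, 8.27, 8.37 and 8.10 with Cl-BBQ. TCDD replicate 3 lay within the vehicle range, and the difference of -0.53 (SE 0.16, adjusted p = 0.059) did not pass; with Cl-BBQ all arrays lay below vehicle and the difference of -0.59 (SE 0.15, adjusted p = 0.017) passed. That call was lost without vehicle replicate 1 or 2 (adjusted p = 0.064 in both fits), while the TCDD difference passed without vehicle replicate 4 (0.032) or TCDD replicate 3 (0.021). The TCDD difference of H1f2 also passed with a stricter floor, a trended robust variance or array weights. H1f10, the linker variant H1.10, is described with the variants.

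**Figure D3:**
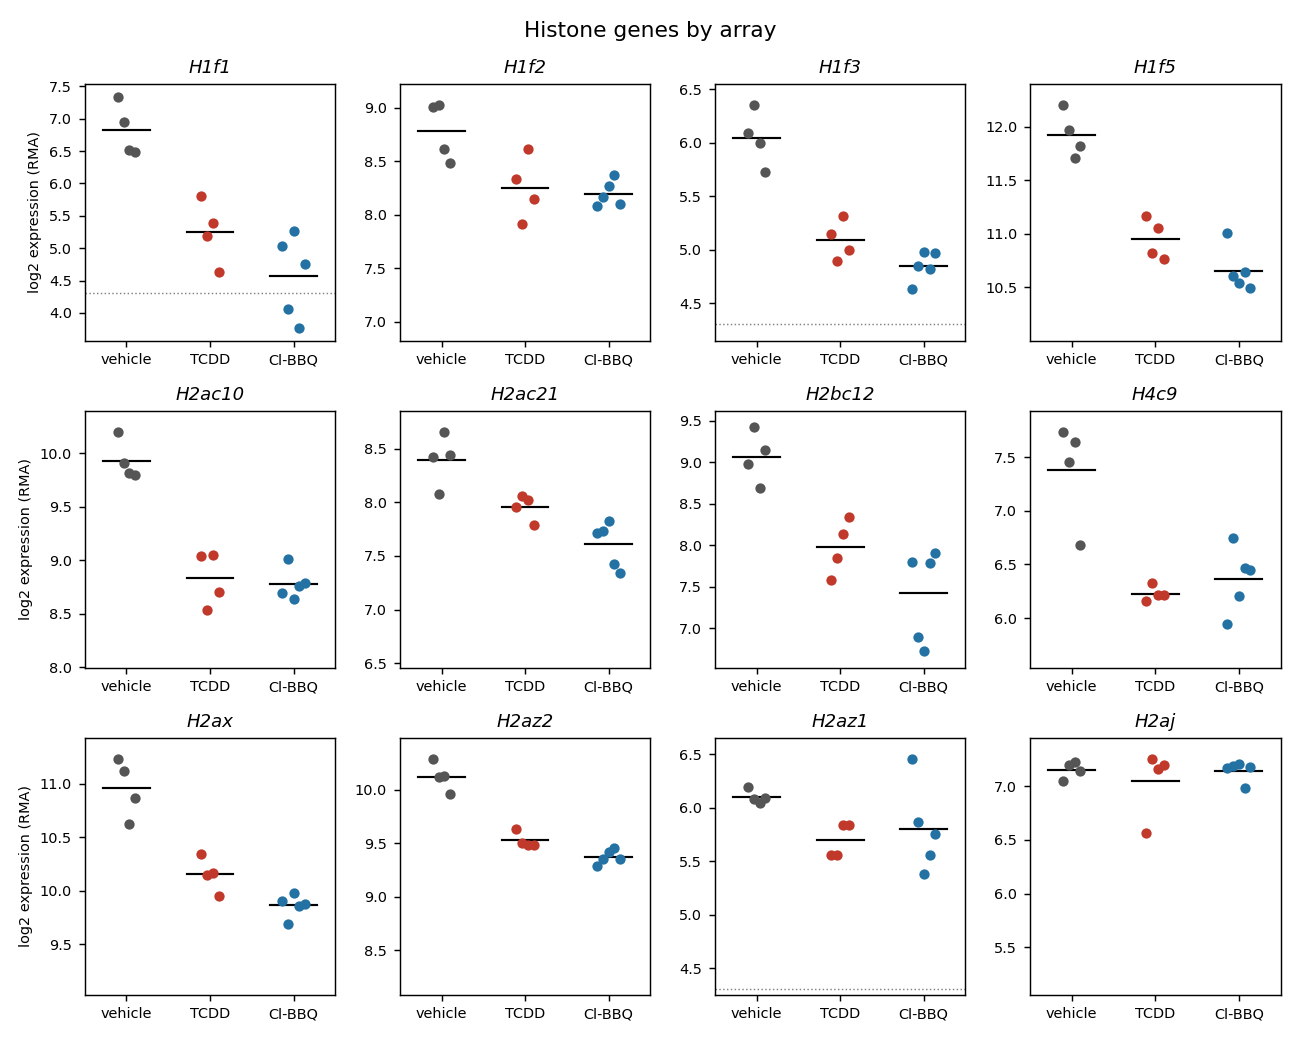
Log2 expression (vertical axis, each panel with its own range) of 12 histone genes in the 4 vehicle (grey), 4 TCDD (red) and 5 Cl-BBQ (blue) arrays; points are arrays, bars are group means and the dotted line is the floor of 4.31. In H1f5, H2ac10, H2ax and H2az2 no treated array reaches the vehicle range, whereas in H2aj the groups overlap.

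H2A genes encode the partner of H2B in the nucleosome's outer dimers. Of 6 replication-dependent members 5 were tested; 2 fell with TCDD and 4 with Cl-BBQ, with medians over all 6 of -0.55 and -0.90. H2ac10 gave the smallest adjusted p with TCDD of all members. Its values were 10.20, 9.91, 9.82 and 9.80 with vehicle, 9.04, 8.54, 9.05 and 8.71 with TCDD and 8.70, 9.01, 8.64, 8.76 and 8.79 with Cl-BBQ. Both treated groups lay fully below vehicle and covered nearly the same range, and the falls were 1.10 (SE 0.13, adjusted p = 0.00011; 2.14-fold) and 1.15 (SE 0.13, adjusted p = 2.1e-05; 2.22-fold).

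H2ac15 was measured at 10.73, 11.08, 9.96 and 10.72 with vehicle, at 9.84, 9.85, 9.73 and 9.78 with TCDD and at 9.29, 9.76, 9.83, 9.30 and 9.83 with Cl-BBQ. Vehicle replicate 3 lay apart from the other vehicle arrays, close to the treated ones, yet above all of them. The difference was -0.82 (SE 0.20, adjusted p = 0.02) with TCDD and -1.02 (SE 0.19, adjusted p = 0.0018) with Cl-BBQ. The TCDD call was lost in 5 of 13 fits that left out 1 array (vehicle replicate 1, 2 or 4, or TCDD replicate 3 or 4), with adjusted p-values from 0.05028 to 0.068.

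H2ac20 and H2ac21, both of the smaller second histone cluster, passed with Cl-BBQ, while their TCDD differences passed only under some alternatives. H2ac20 was measured at 9.01, 9.04, 8.22 and 8.58 with vehicle, at 8.24, 8.08, 8.32 and 7.95 with TCDD and at 7.10, 7.98, 8.08, 7.78 and 7.56 with Cl-BBQ. The TCDD arrays overlapped the vehicle range and the Cl-BBQ arrays did not, with differences of -0.56 (SE 0.21, adjusted p = 0.16) and -1.01 (SE 0.20, adjusted p = 0.0033). With array weights the TCDD difference of H2ac20 was -0.64 and passed (adjusted p = 0.038). H2ac21 was measured at 8.42, 8.08, 8.66 and 8.44 with vehicle, at 7.96, 8.06, 8.02 and 7.79 with TCDD and at 7.71, 7.74, 7.83, 7.43 and 7.34 with Cl-BBQ. Here neither treated group overlapped vehicle, and the differences were -0.44 (SE 0.14, adjusted p = 0.071) and -0.79 (SE 0.13, adjusted p = 0.00068). Without vehicle replicate 2, the lowest of its group, the TCDD difference of H2ac21 was -0.55 with an adjusted p of 0.025, and it also passed with a stricter floor (0.048) or a trended robust variance (0.043). H2aw, the H2A gene of the third cluster, had differences of -0.53 (adjusted p = 0.22) and -0.22 (adjusted p = 0.6) and did not pass; H2ac12 was not tested.

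Among the 7 replication-dependent H2B genes 5 were tested, and H2bc12, H2bc18 and H2bc3 fell with both agents; over all 7 the medians were -0.71 and -0.70. H2bc12 was measured at 8.98, 9.42, 8.69 and 9.14 with vehicle, at 7.58, 7.84, 8.14 and 8.34 with TCDD and at 7.79, 6.89, 6.72, 7.79 and 7.91 with Cl-BBQ. All treated arrays lay below all vehicle arrays, and Cl-BBQ replicates 2 and 3 were the lowest. Its fall was 1.08 log2 (SE 0.27, adjusted p = 0.022; 2.12-fold) with TCDD and 1.64 log2 (SE 0.25, adjusted p = 0.00042; 3.11-fold) with Cl-BBQ. Leaving out vehicle replicate 1, 2 or 4 or TCDD replicate 1 or 2 took the TCDD call above the threshold (adjusted p 0.05012 to 0.075).

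H2bc18, from the second cluster, was measured at 7.30, 6.77, 7.22 and 6.72 with vehicle, at 6.32, 6.20, 6.63 and 6.45 with TCDD and at 6.51, 6.35, 6.51, 5.90 and 6.23 with Cl-BBQ. The groups came close to each other without overlapping, with differences of -0.61 (SE 0.16, adjusted p = 0.038) and -0.70 (SE 0.16, adjusted p = 0.0071). H2bc3 was measured at 7.91, 7.45, 7.09 and 7.36 with vehicle, at 6.82, 6.68, 6.67 and 6.80 with TCDD and at 6.11, 6.93, 6.61, 6.32 and 7.01 with Cl-BBQ. Its TCDD arrays lay within a narrow band below all vehicle arrays, and the differences were -0.71 (SE 0.20, adjusted p = 0.043) and -0.86 (SE 0.19, adjusted p = 0.0062). The TCDD calls of both genes changed with single arrays. That of H2bc18 was lost in 7 of 13 leave-one-out fits (vehicle replicate 1 or 3, TCDD replicate 1, 2 or 4, Cl-BBQ replicate 2 or 5; adjusted p 0.05044 to 0.12) and that of H2bc3 in 8 (vehicle replicate 1, 2 or 4, any TCDD replicate, Cl-BBQ replicate 3; adjusted p 0.057 to 0.13).

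H2bc9 and H2bc21 did not pass in either comparison, although their mean differences were not small. H2bc9 was measured at 5.85, 6.87, 5.92 and 4.91 with vehicle, at 5.92, 4.26, 4.62 and 4.44 with TCDD and at 4.37, 4.01, 5.62, 5.55 and 4.14 with Cl-BBQ. The arrays of each group spread over more than 1 log2 unit and overlapped. The differences were -1.08 (95% interval -2.08 to -0.08, adjusted p = 0.23) and -1.15 (-2.10 to -0.20, adjusted p = 0.13), so that the unadjusted intervals left out 0 and the adjusted threshold was not reached. H2bc21, which encodes a form of H2B studied in olfactory neurons, had differences of -0.72 (SE 0.33, adjusted p = 0.26) and -0.44 (SE 0.31, adjusted p = 0.45).

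H4 genes all encode the same protein, and most of the 7 members gave little signal: 2 were tested, of which 1 fell with TCDD and 2 with Cl-BBQ, and the medians over all 7 were -0.41 and -0.28. H4c9 was measured at 7.74, 7.46, 7.64 and 6.68 with vehicle, at 6.16, 6.32, 6.22 and 6.21 with TCDD and at 5.94, 6.75, 6.20, 6.47 and 6.45 with Cl-BBQ. Vehicle replicate 4 was the lowest of its group by far and lay below Cl-BBQ replicate 2, so that the Cl-BBQ group overlapped vehicle. Its fall was 1.15 log2 (SE 0.21, adjusted p = 0.0026; 2.22-fold) with TCDD and 1.02 log2 (SE 0.20, adjusted p = 0.0026; 2.02-fold) with Cl-BBQ. Both calls held in all 13 fits that left out 1 array.

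H4c12 showed the smallest called difference among the replication-dependent genes. Its values were 11.25, 11.30, 11.32 and 11.06 with vehicle, 11.02, 10.77, 11.17 and 10.91 with TCDD and 11.00, 10.99, 10.83, 10.92 and 10.75 with Cl-BBQ. TCDD overlapped vehicle and did not pass (-0.27, SE 0.10, adjusted p = 0.18), while Cl-BBQ lay just below it (-0.34, SE 0.10, adjusted p = 0.041). The latter call was lost in 8 of 13 leave-one-out fits (vehicle replicate 1, 2 or 3, TCDD replicate 1 or 4, Cl-BBQ replicate 3, 4 or 5; adjusted p 0.052 to 0.11). Of the 5 H4 genes that were not tested, H4c8 was the only replication-dependent gene with a difference above 0, at 0.03 with Cl-BBQ.

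By position, the first cluster on chromosome 13 held 18 of the replication-dependent members, of which 11 were tested. Of these 8 fell with TCDD and 10 with Cl-BBQ, with medians over all 18 of -0.76 and -0.82. The second cluster, on chromosome 3, held 5 members, of which 4 were tested; 1 fell with TCDD (H2bc18) and 3 with Cl-BBQ (H2bc18, H2ac20 and H2ac21), with medians of -0.56 and -0.70. Of all genes tested, 3.5% were lower with TCDD and 6.03% with Cl-BBQ. The difference between the clusters was not tested.

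Counted by array, the mean over the 24 replication-dependent genes separated vehicle from both treated groups, whose own ranges overlapped. It lay between 6.14 and 6.58 in the vehicle arrays, between 5.57 and 5.90 with TCDD and between 5.58 and 5.86 with Cl-BBQ. In the somatic variants the mean lay between 7.70 and 7.84, between 7.29 and 7.43 and between 7.25 and 7.52, also without overlap with vehicle. Germline means overlapped throughout, at 3.53 to 3.81, 3.51 to 3.75 and 3.34 to 3.72, all below the floor.

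**Figure D4:**
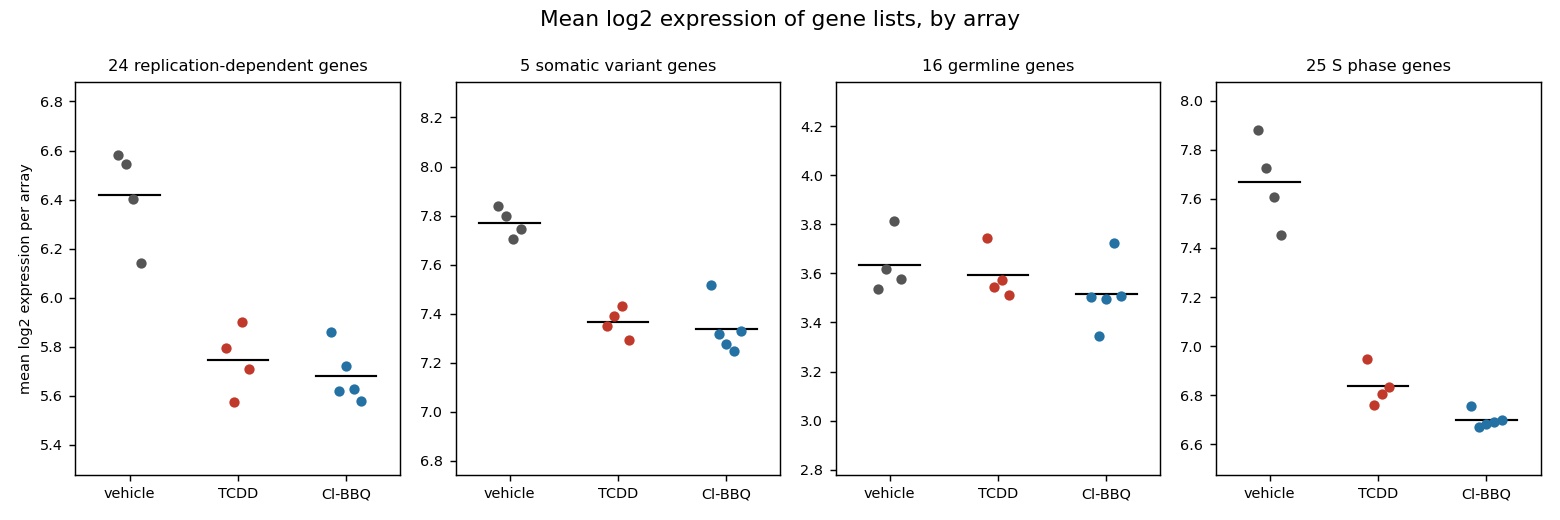
Mean log2 expression per array (vertical axis; every panel spans the same number of log2 units) of the replication-dependent, somatic variant and germline histone genes and of 25 S phase genes; points are arrays and bars are group means. The 4 vehicle arrays lie above all treated arrays in every panel but that of the germline genes.

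Among the somatic variants, H2ax and H2az2 fell with both agents. H2ax encodes H2A.X, which is phosphorylated around DNA breaks, and its message is known to occur in both a stem-loop and a polyadenylated form. It was measured at 11.23, 11.12, 10.63 and 10.87 with vehicle, at 10.35, 10.15, 10.17 and 9.95 with TCDD and at 9.91, 9.70, 9.98, 9.86 and 9.88 with Cl-BBQ. The treated arrays lay below vehicle without overlap, by -0.81 (SE 0.13, adjusted p = 0.0011; 1.75-fold) and -1.10 (SE 0.12, adjusted p = 2.3e-05; 2.14-fold).

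H2az2 encodes one of the pair of H2A.Z proteins, which mark nucleosomes at promoters. Its values were 10.28, 10.12, 10.13 and 9.96 with vehicle, 9.63, 9.50, 9.49 and 9.49 with TCDD and 9.29, 9.36, 9.42, 9.46 and 9.35 with Cl-BBQ. The 3 groups did not overlap at all, with vehicle highest and Cl-BBQ lowest. Relative to vehicle the difference was -0.60 (SE 0.09, adjusted p = 0.00057; 1.51-fold) with TCDD and -0.75 (SE 0.08, adjusted p = 2.3e-05; 1.68-fold) with Cl-BBQ.

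H2az1, the gene of the other H2A.Z protein, did not pass. It was measured at 6.20, 6.08, 6.05 and 6.09 with vehicle, at 5.56, 5.56, 5.84 and 5.84 with TCDD and at 6.45, 5.87, 5.38, 5.56 and 5.76 with Cl-BBQ. All TCDD arrays lay below vehicle, whereas Cl-BBQ replicate 1 was the highest of all 13 arrays. The differences were -0.41 (SE 0.18, adjusted p = 0.24) and -0.30 (SE 0.17, adjusted p = 0.32). Without Cl-BBQ replicate 1 they were -0.41 and -0.46 and both passed (adjusted p = 0.0497 and 0.017), each with an SE of 0.12.

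H1f10 and H2aj stayed close to 0. H2aj, whose protein H2A.J is known from senescent cells, was measured at 7.05, 7.20, 7.23 and 7.14 with vehicle, at 6.57, 7.25, 7.16 and 7.20 with TCDD and at 7.17, 7.19, 7.21, 6.98 and 7.18 with Cl-BBQ. Apart from TCDD replicate 1 the arrays of all groups covered the same narrow range. The differences were -0.11 (95% interval -0.40 to 0.17) with TCDD and -0.01 (-0.28 to 0.26) with Cl-BBQ. For H1f10 they were -0.10 (-0.39 to 0.19) and -0.01 (-0.28 to 0.26), in a gene whose group means of 4.41 to 4.51 barely exceeded the floor.

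The germline genes encode histone forms known from testis and oocyte. Of 16 members 6 were tested (H2ab1, H2ab2, H2ac1, H2al1m, H2al1o and H2al2a), with group means between 3.85 and 5.05. Their differences ranged from -0.41 to 0.65 with TCDD and from -0.54 to 0.58 with Cl-BBQ, and none passed. H2ac1 had the largest of these, 0.65 (SE 0.30, adjusted p = 0.26) and 0.58 (SE 0.28, adjusted p = 0.23). It was measured at 2.75, 4.36, 3.81 and 4.49 with vehicle, at 4.26, 4.49, 4.73 and 4.54 with TCDD and at 4.15, 4.39, 4.18, 4.88 and 4.60 with Cl-BBQ. The lowest value was that of vehicle replicate 1, and the groups overlapped. H2al1m had 1 high Cl-BBQ array (replicate 4, 6.40) among values of 3.62 to 5.10 in the other 12.

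Because the nearly identical histone genes share much of their sequence, most H3 and many H2A and H2B genes could be read only on probe sets with several symbols. A fit over all 14510 tested annotated probe sets called 3.36% lower with TCDD and 5.81% lower with Cl-BBQ. Of 43 probe sets whose symbols were all histone genes (39 with distinct values), 28 were tested; 11 were lower with TCDD, 21 with Cl-BBQ and 0 higher. Of the 28, 10 were sets of the germline H2A gene H2al1 and its copies, which gave 0 of the 11 calls and 8 of the 21; those 8 became 5 without vehicle replicate 2 or Cl-BBQ replicate 1, 3 or 5, and 4 without vehicle replicate 3. A further 16 probe sets (15 distinct) carried a histone symbol beside symbols that the naming rule did not match. Among the latter were H4bc24 and H4f16, which are histone names too. Sets with identical values are each counted among the tested and the lower sets, here and below. No gene can be named from such a set, and sets that list the same genes are not independent of each other or of the members they include.

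Among the replication-dependent families, most H2A sets and the H4 set fell with both agents. Of 8 tested H2A sets, germline sets left aside, 7 were lower with TCDD and 8 with Cl-BBQ. Among them were pairs with identical values, and each set of a pair was counted. The set with the largest falls, shared by H2ac11 and 9 further H2A genes, was measured at 7.35, 7.43, 7.26 and 7.04 with vehicle, at 5.94, 5.97, 5.16 and 4.90 with TCDD and at 5.88, 4.87, 5.73, 4.87 and 6.04 with Cl-BBQ. All treated arrays lay below all vehicle arrays, and the differences were -1.78 (SE 0.29, adjusted p = 0.0016) and -1.79 (SE 0.28, adjusted p = 0.0005). The tested H4 set, shared by 6 H4 genes, fell by 0.66 (adjusted p = 0.0057) and by 0.86 (adjusted p = 0.00023). Its genes include the tested member H4c9 and the members H4c1, H4c2, H4c8 and H4c17, which were not tested. Of 8 tested H2B sets, 5 with symbols of the naming rule alone and 3 that also list H4bc24, 5 were lower with each agent. A pair of the lower H2B sets had identical values, and each was counted.

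For the S phase forms of H3, H3.1 and H3.2, 3 of 12 sets were tested, and 1 fell with TCDD and 2 with Cl-BBQ. The set of H3c1, H3c8, H3c10 and H3c11 was measured at 7.84, 7.50, 8.43 and 7.47 with vehicle, at 6.43, 6.94, 7.04 and 6.26 with TCDD and at 6.97, 6.03, 6.14, 6.29 and 6.58 with Cl-BBQ. No treated array reached the vehicle range, and the differences were -1.14 (SE 0.25, adjusted p = 0.012) and -1.41 (SE 0.24, adjusted p = 0.001). A set shared by 8 other H3 genes, H3c15 first, differed by -0.46 (adjusted p = 0.062) and fell by 0.82 (adjusted p = 0.0005). The remaining tested set, of the same 8 genes, differed by 0.13 (adjusted p = 0.94) and -0.22 (adjusted p = 0.85).

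For H3.3, the replacement variant that is laid down outside S phase, 7 sets were tested and none was lower or higher with either agent. All list H3f3a beside pseudogenes or predicted genes, and most but not all also list H3f3b. Of all annotated probe sets tested, 3.36% were lower with TCDD and 5.81% with Cl-BBQ, and 0 of 7 is close to these shares. Their differences lay between -0.16 and 0.11 with TCDD and between -0.21 and 0.08 with Cl-BBQ. The 95% intervals reached from -0.443 to 0.426. These bounds leave out a fall as large as that of the H3.1 set, which had the largest fall of the tested H3 sets. For the set that lists H3c15 first, the TCDD difference of -0.46 had a 95% interval of -0.74 to -0.17, which overlaps them. Its Cl-BBQ interval of -1.09 to -0.55 does not. The differences of the remaining tested H3 set lie within the H3.3 bounds, and no test compared the H3 forms directly. The set shared by H1f4 and 3 H2B genes differed by -0.31 (adjusted p = 0.48) and -0.46 (adjusted p = 0.16).

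**Figure D5:**
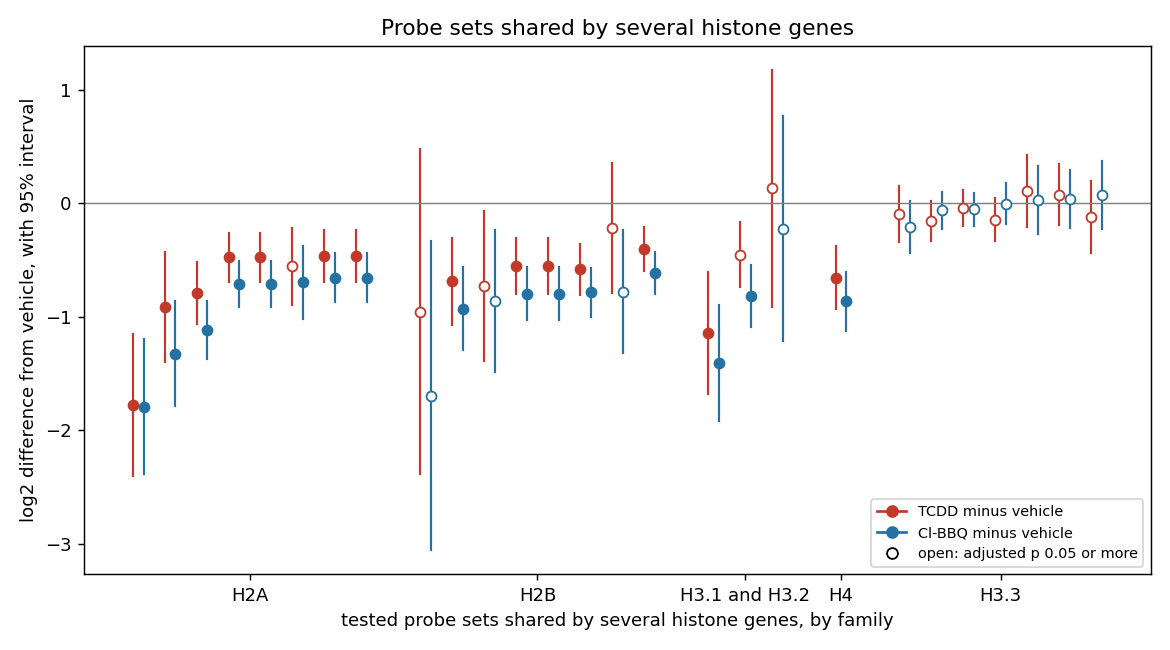
Log2 difference from vehicle (vertical axis) of tested probe sets shared by several histone genes, by family along the horizontal axis, with 95% intervals; red is TCDD, blue Cl-BBQ, and filled points have an adjusted p under 0.05. All tested H2A, H2B and H4 sets and 2 of the 3 of H3.1 and H3.2 lie below 0 with both agents, not all of them called, while the 7 H3.3 sets lie around it; germline sets are not drawn, and sets with identical values are drawn each.

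Most genes that make and process histone messages had differences below 0, and most did not pass the test. The list held 17 genes, of which 16 were matched and 15 tested. With TCDD 1 fell and with Cl-BBQ 2, against 3.5% and 6.03% of all genes tested. None rose (0 of 15), against 3.21% and 5.31% of all genes tested. An unadjusted p under 0.05 was found for 5 and 6, and for 18% and 23% of all genes tested. The difference was below 0 in 13 and 14 of the 15, against 50.2% and 51.2% of all genes tested. The median over the 16 was -0.20 and -0.26. The array mean of the list lay between 7.04 and 7.21 with vehicle, between 6.86 and 6.94 with TCDD and between 6.85 and 7.00 with Cl-BBQ, so that both treated groups lay below vehicle. Eri1, an exonuclease that trims and degrades histone messages, fell by 0.67 (SE 0.14, adjusted p = 0.0069) with TCDD and by 0.62 (SE 0.13, adjusted p = 0.0049) with Cl-BBQ. Slbp, the protein that binds the stem-loop, had group means of 8.73, 8.42 and 8.20 in vehicle, TCDD and Cl-BBQ. Its difference of -0.31 with TCDD did not pass (SE 0.09, adjusted p = 0.059) and its fall of 0.53 with Cl-BBQ did (SE 0.09, adjusted p = 0.00071). The TCDD difference passed with a stricter floor (adjusted p = 0.036), a trended robust variance (0.0296), array weights (0.047) or without vehicle replicate 4 (0.0299). Npat, the coactivator of histone gene transcription, which was named after its values had been seen, differed by -0.57 (adjusted p = 0.057) and -0.36 (adjusted p = 0.18).

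Several histone chaperones, which carry histones to DNA, fell with both agents. Of 27 matched genes, all tested, 9 fell with TCDD and 11 with Cl-BBQ, with medians of -0.25 and -0.24. Of all genes tested, 3.5% and 6.03% were lower. Chaf1a, the large subunit of the chromatin assembly factor CAF-1 at the replication fork, fell by 1.50 (SE 0.19, adjusted p = 0.00014) and by 1.60 (SE 0.18, adjusted p = 2.2e-05). Hat1, which acetylates new H4, fell by 0.78 (adjusted p = 0.00026) and by 0.96 (adjusted p = 1.1e-05), and the H3-H4 chaperone Asf1b by 1.12 (adjusted p = 0.001 and 0.00035) with each agent. Mcm2, a helicase subunit that also binds H3 and H4, fell by 0.88 (adjusted p = 0.0011) and by 1.04 (adjusted p = 8.3e-05). Hira, Daxx and Atrx, which place H3.3 and were named after their values had been seen, had differences between -0.25 and 0.05 and did not pass.

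Histone variants outside the naming rule moved in both directions. Cenpa, the H3 variant of centromeres, had group means of 9.15 (vehicle), 8.38 (TCDD) and 8.02 (Cl-BBQ) and fell by 0.77 (SE 0.10, adjusted p = 0.00021) with TCDD and by 1.13 (SE 0.10, adjusted p = 1.6e-06) with Cl-BBQ. Macroh2a1, an H2A variant with a large extra domain, rose by 0.46 (SE 0.10, adjusted p = 0.0092) and by 0.61 (SE 0.09, adjusted p = 0.00041), with no treated array in the vehicle range. Macroh2a2 was not tested.

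S phase genes fell in the same arrays. Of 25 matched genes of DNA replication and nucleotide supply, 21 fell with TCDD and 24 with Cl-BBQ, with medians of -0.88 and -0.98. Among all genes tested, 3.5% and 6.03% were lower. The array mean of the 25 genes was 7.45 to 7.88 with vehicle, 6.76 to 6.95 with TCDD and 6.67 to 6.76 with Cl-BBQ. With Cl-BBQ the smallest adjusted p-values were those of Rrm1 and Rrm2, the subunits of ribonucleotide reductase, Pole, the catalytic subunit of a replicative polymerase, and Mcm7, a helicase subunit. Rrm1 fell by 1.25 (SE 0.12, adjusted p = 1.8e-05) and by 1.60 (SE 0.12, adjusted p = 4e-07). How far the histone differences go along with the share of cells in S phase was not tested.

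Between the agents no histone gene passed the test. In Cl-BBQ minus TCDD, 0 of 27 tested members were called, against 0% of all genes tested called lower and 0.0236% higher, and 6 had an unadjusted p under 0.05 (H1f1, H1f5, H2ac20, H2ac21, H2ax and H2bc12), all with the lower mean under Cl-BBQ. Of all genes tested, 6.41% had an unadjusted p under 0.05 in this contrast. The median over the 24 replication-dependent genes was -0.06. H1f1 had the largest difference, -0.68 (95% interval -1.34 to -0.03, adjusted p = 0.76), followed by H2bc12 with -0.55 (-1.10 to -0.01, adjusted p = 0.76). H2az2 was the only tested member whose Cl-BBQ arrays all lay below its TCDD arrays, which held for 1.08% of all genes tested, and in 0 members they all lay above, against 1.03%; its difference was -0.15 (-0.33 to 0.03, adjusted p = 0.84). Several genes differed little between the agents, among them H2ac10 with -0.05 (-0.32 to 0.22) and H4c9 with 0.14 (-0.28 to 0.55). The agents differed in dose and number of injections, so this contrast compares the regimens as given. These intervals do not show that the agents act alike.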

How the data were processed

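The deposited values were log2 expression of 41345 probe sets in 13 arrays, made by the authors with RMA, per the submitters' processing notes; the sources used here name no RMA version. The values were used as deposited. Gene names came from the platform annotation (23521 with 1 symbol, 1814 with several), with symbols updated through gene IDs to RefSeq (GRCm38.p6). The highest probe set by mean stood for each of 22180 genes, and testing was limited to the 12710 genes that exceeded 4.31, the overall median, in 4 or more arrays. One limma model (3.58.1, R 4.3.3) of group means over all 13 arrays gave 3 contrasts, with Benjamini-Hochberg adjustment within each contrast and a threshold of 0.05. The number of arrays limits the precision. Nothing says more than that replicates are biological, so p-values measure the spread between these arrays. The script was tested on simulated data.

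The naming rule took up to 3 called members per class and kind and up to 4 genes per pathway list, by smallest adjusted p. It also took up to 2 members between the agents, and H1f1, H1f2, H1f10, H2ax, H2az1 and H2az2 whatever their result. H1f0, H1f4, H3f3a and H3f3b were fixed in the same way. No probe set found by the symbol rule carried H1f0, and H1f4, H3f3a and H3f3b were read only on shared sets. Other members and genes were named after their values were seen. The members and lists were chosen with earlier results of these data known. Alternatives covered the floor, the probe set rule, renormalization, the variance model, array weights, fits of 2 groups, a replicate block and leaving out each array.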

Additional observations from a re-analysis of the deposited data

Results flagged for a closer look

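Within each group, the highest and lowest array of each named gene and of the means of the replication-dependent and somatic variant genes was set against the others (Dixon's criterion), in 105 checks of 35 items; 4 stood apart, and chance flags about 1 in 20 groups. H1f10 was highest in Cl-BBQ replicate 1, at 4.76 against 4.49 in the nearest array of its group. H2az2 was highest among the TCDD arrays in replicate 1, at 9.63 against 9.50, still below every vehicle array. H2aj was lowest among the TCDD arrays in replicate 1, at 6.57 against 7.16, and lowest among the Cl-BBQ arrays in replicate 4, at 6.98 against 7.17. The causes were not tested.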

How the results depend on the processing

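The count of histone genes called was 9 to 13 with TCDD and 13 to 15 with Cl-BBQ under the settings that kept all arrays, and 7 to 12 and 13 to 16 when 1 array was left out, with the 7 reached without vehicle replicate 1; between the agents it was 0 throughout. The all-gene count between the agents, 3, became 0 without a floor, 6 with a stricter floor, 5 with the mean of probe sets, 5 after quantile renormalization, 6 with a trended robust variance, 7 with array weights, 0 in a fit of those 2 groups and 0 to 5 without 1 array. Same-numbered arrays of different groups did not deviate together over all genes tested (r -0.059 to 0.075 in 12 pairs, against -0.061 to 0.078 in 44 pairs of unlike number). A correlation over all genes cannot settle whether the numbers pair the arrays, since pairing might touch only part of the genes. With a replicate block, 10 histone genes were called with TCDD, 13 with Cl-BBQ and 0 between the agents, where the all-gene count was 0; H2bc3 (TCDD, adjusted p = 0.067), H1f2 (0.08) and H4c12 (0.14, both Cl-BBQ) lost their calls. Near 0, directions turned when 1 array was left out: the difference of H1f10 ranged from -0.076 to 0.040 with Cl-BBQ (above 0 without vehicle replicate 4 or Cl-BBQ replicate 3 or 4) and from -0.18 to 0.037 with TCDD (above 0 without TCDD replicate 4). That of H2aj ranged from -0.046 to 0.031 with Cl-BBQ (above 0 without vehicle replicate 2 or 3 or Cl-BBQ replicate 4) and from -0.18 to 0.049 with TCDD (above 0 without TCDD replicate 1). The causes were not tested beyond the arrays left out. Without a floor, the TCDD calls of H2bc18 and H2bc3 and the Cl-BBQ call of H4c12 were lost. Low signal leaves 20 histone genes untested.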

Other observations

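Probe sets shared by copies of the germline gene H2al1 had vehicle means of 5.16 to 6.20; of 10 tested sets 0 passed with TCDD and 8 were lower with Cl-BBQ, by -0.59 to -1.78. Without 1 array the count with Cl-BBQ was 4 to 8; it was 4 without vehicle replicate 3 and 5 without vehicle replicate 2 or Cl-BBQ replicate 1, 3 or 5. A pair of the sets lower with Cl-BBQ had identical values, and each was counted. The set that differed by -1.78 had a Cl-BBQ mean of 3.38, below the floor. The copies share sequence, so these sets are not independent of each other, and the single-gene members H2al1m and H2al1o did not pass in the same comparison.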
